A study of Mus musculus with 6 samples.

Results

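The genes described here encode the subunits of the transcription factor NF-kB, proteins that regulate it (mostly inhibitors) and the cytokine Tnf. Tnf both switches NF-kB on and is made under its control. The genes were chosen by name, as 10 gene symbols. Of these, 9 were measured through a probe set annotated with that symbol alone, of 22180 genes in all. Nfkb1 was not analysed here. Each of the 9 had 1 such probe set, and all 9 lay above the filter on dim genes, which left 15526 genes to test. RNA was profiled on 6 Affymetrix arrays from mouse B-ALL (acute lymphoblastic leukaemia of B-cell precursors) driven by BCR-ABL, a fusion tyrosine kinase. The 3 DHA samples had received 312 nM dihydroartemisinin, the active form of the artemisinin antimalarials, for 4 h, and the 3 DMSO samples the vehicle alone. All groups come from cells that the growth protocol describes as p185+ (the BCR-ABL form usual in B-ALL) or p185T315I+ (with a mutation that resists many kinase inhibitors), and as Arf-/- or p53-/-, without saying which of these was arrayed. Nor do the labels say whether the samples of a group were separate cultures, so p-values here reflect only the spread between these arrays, and part of that spread may be technical.

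NF-kB proteins bind DNA as pairs drawn from Rel, Rela, Relb and the processed forms of Nfkb1 and Nfkb2. In resting cells, IkB proteins such as those encoded by Nfkbia and Nfkbie keep these pairs in the cytoplasm. Signals from TNF, Toll-like and antigen receptors activate the IKK kinases, which mark the IkB proteins for destruction. NF-kB then enters the nucleus and switches on, among others, genes for its own inhibitors, so that Nfkbia, Nfkbie and Tnfaip3 are widely used as readouts of the pathway. Precursor B cells use these factors during pre-B-cell receptor signalling, and c-Rel, the product of Rel, is most abundant in lymphoid cells.

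Promoter sequences are shown first because many of these genes are known targets of the factor they encode or restrain. The sequences are RefSeq's, from assembly GRCm38.p6, and each runs 5′ to 3′ on the gene's own strand from 250 bases before to 50 bases after an annotated transcript start. They were matched by symbol for 7 of the 9 genes. Capitals mark matches to the kB consensus, the 10-base site that NF-kB pairs bind, searched on both strands, with overlapping matches joined. Rel and Tnf are shown as the genes with the largest differences in either direction, and Nfkbia and Tnfaip3 as the inhibitors. Nfkb2 is shown as a subunit gene with matches in the windows of all its annotated starts, of which the most upstream is given.
Rel, chr11:23770920-23771219, minus strand: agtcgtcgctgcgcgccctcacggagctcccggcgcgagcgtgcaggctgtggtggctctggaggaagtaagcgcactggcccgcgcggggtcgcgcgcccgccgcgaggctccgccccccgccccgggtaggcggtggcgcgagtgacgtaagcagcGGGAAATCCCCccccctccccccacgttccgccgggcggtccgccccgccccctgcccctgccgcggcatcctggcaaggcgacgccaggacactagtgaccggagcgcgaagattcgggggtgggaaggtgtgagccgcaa
Nfkb2, chr19:46304487-46304786, plus strand: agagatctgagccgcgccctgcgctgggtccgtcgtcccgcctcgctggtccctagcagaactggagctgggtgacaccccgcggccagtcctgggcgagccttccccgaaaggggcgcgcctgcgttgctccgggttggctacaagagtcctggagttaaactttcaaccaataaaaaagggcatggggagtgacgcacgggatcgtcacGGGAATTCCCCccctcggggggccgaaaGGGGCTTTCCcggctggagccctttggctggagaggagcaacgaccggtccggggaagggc
Nfkbia, chr12:55492598-55492897, minus strand: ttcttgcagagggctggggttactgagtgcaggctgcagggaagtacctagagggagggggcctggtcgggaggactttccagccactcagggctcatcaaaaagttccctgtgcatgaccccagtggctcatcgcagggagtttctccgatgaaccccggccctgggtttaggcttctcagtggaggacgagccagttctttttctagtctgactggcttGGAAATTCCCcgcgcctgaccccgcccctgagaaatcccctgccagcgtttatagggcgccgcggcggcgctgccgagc
Tnfaip3, chr10:19015361-19015660, minus strand: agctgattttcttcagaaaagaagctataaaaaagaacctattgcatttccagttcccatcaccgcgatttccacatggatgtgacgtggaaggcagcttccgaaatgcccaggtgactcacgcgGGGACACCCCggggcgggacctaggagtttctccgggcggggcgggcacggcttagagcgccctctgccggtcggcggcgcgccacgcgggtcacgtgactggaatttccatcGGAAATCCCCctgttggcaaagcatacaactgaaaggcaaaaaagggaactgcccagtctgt
Tnf, chr17:35201958-35202257, minus strand: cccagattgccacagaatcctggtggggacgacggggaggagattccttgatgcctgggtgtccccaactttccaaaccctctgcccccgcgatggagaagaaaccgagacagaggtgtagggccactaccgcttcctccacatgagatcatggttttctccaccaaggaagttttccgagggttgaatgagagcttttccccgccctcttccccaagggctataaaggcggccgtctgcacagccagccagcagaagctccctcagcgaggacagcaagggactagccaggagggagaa

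Matches stood in the windows of 5 of the 7 genes, Rel, Nfkb2, Nfkbia, Nfkbie and Tnfaip3, and not in those of Rela and Tnf. The same search found a match in 1445 (11.96%) of the 12084 tested genes with such a window and in 8.46% of all 32851 windows. In Rel the stretch GGGAAATCCCC ended 82 bases before the start. In Nfkbia the site ended 20 bases before it, and in Tnfaip3 the nearer of 2 sites ended 3 bases before it, while the window of its other annotated start held none. In Nfkb2 the nearer of 2 stretches ended 2 bases before the start shown. The windows of its other starts held matches as well, but these windows overlap and share a site. A match is a description of the letters, and binding was not measured. Sequence outside these windows was not searched, so a window without a match does not mean that the gene lacks kB sites.

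After DHA, 8 of the 9 genes lay higher than with vehicle and Tnf lay lower. None of the 9 passed the test across all genes (limma adjusted p at or under 0.05), so each difference below is given as a value and not as a change that was established. Rel had the largest difference upward, 1.34-fold, and Tnf the largest downward, 1.32-fold. The median log2 difference (DHA minus DMSO) of the 9 was 0.25, beside 0.0027 over the 15526 tested genes, of which 51.2% were higher with DHA. That test called 0.0902% of all genes and 0 of the 9. At an unadjusted p under 0.05, 6 of the 9 were higher and 1 was lower, where 5.94% of all tested genes were higher and 6.08% lower at that level. The 3 values of each group did not overlap in 5 of the 9, against 15.8% of all tested genes. In 4 of these DHA was higher (7.64% of all tested genes) and in 1 lower (8.19%). The members share regulation by one another and were chosen together, with earlier results of these data known. Their counts are therefore a description and not separate observations.

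**Figure D1:**
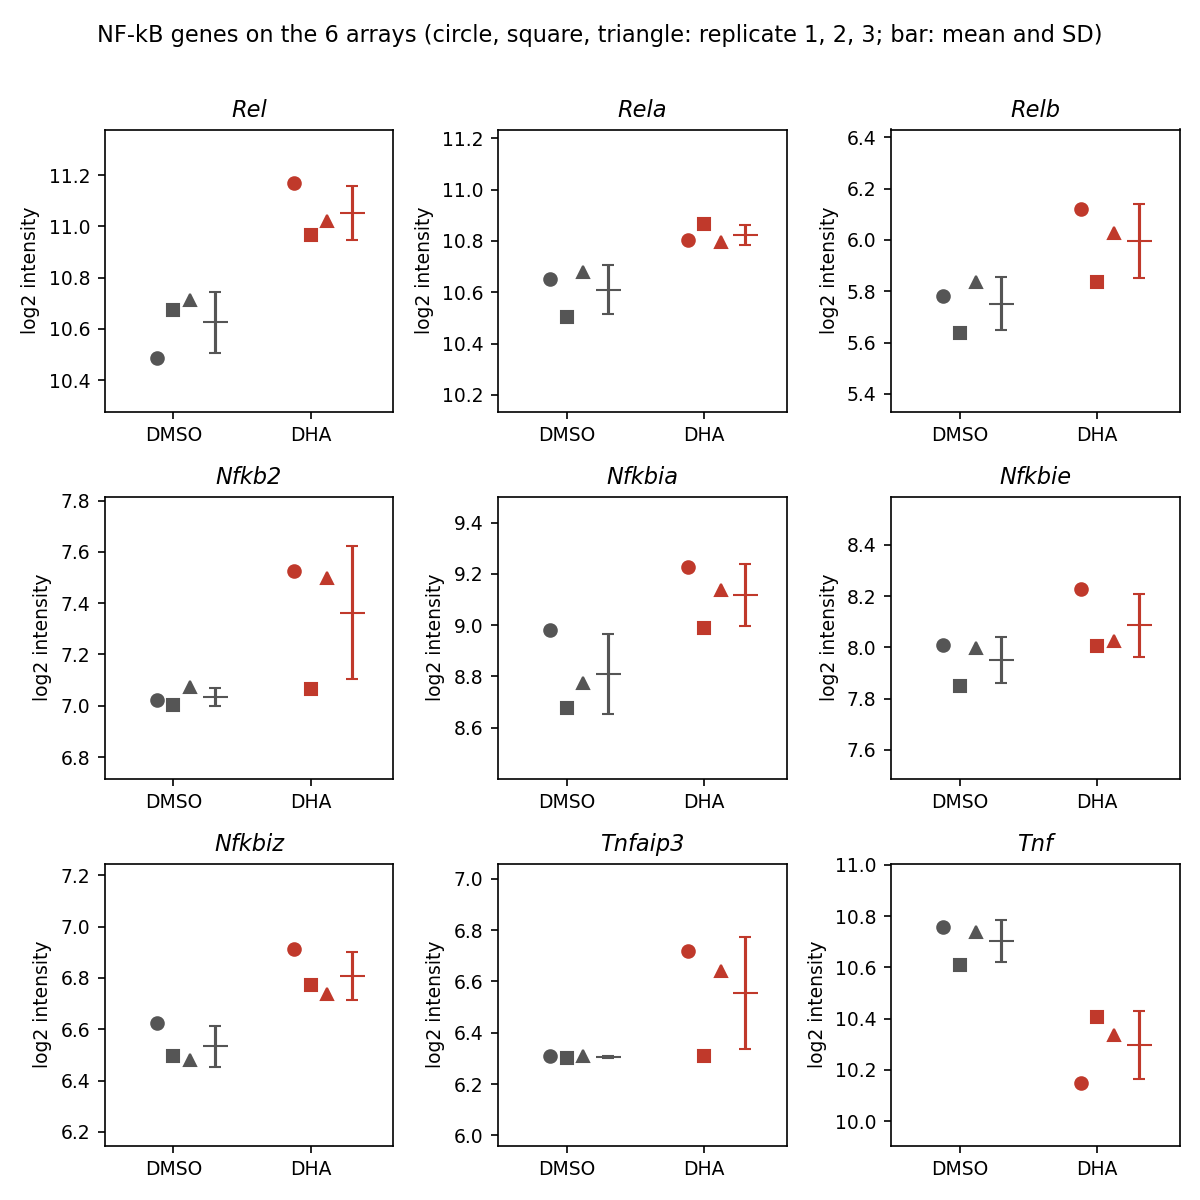
Log2 intensity of the 9 NF-kB genes, 1 panel per gene with the same span on each vertical axis, for the 3 DMSO arrays (grey) and the 3 DHA arrays (red); symbols give the replicate, and bars the mean and SD. The groups were apart in Rel, Rela, Nfkbia, Nfkbiz and Tnf. In Relb, Nfkb2, Nfkbie and Tnfaip3, DHA replicate 2 did not exceed the highest vehicle array.

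Among the subunits, Rel encodes c-Rel, which carries its own activation domain. Its log2 intensity was 10.49, 10.68 and 10.71 on the 3 DMSO arrays and 11.17, 10.96 and 11.02 on the 3 DHA arrays. The lowest DHA array lay above the highest vehicle array. The means were 10.63 ± 0.12 and 11.05 ± 0.10 (SD, n = 3 per group), a log2 difference of 0.43 (standard error, SE, 0.082; 95% confidence interval 0.23 to 0.62). By limma the unadjusted p was 0.00136 and the adjusted p 0.126, which placed Rel at rank 165 of the 15526 genes. The exact permutation p was 0.1, the smallest that 3 against 3 arrays allow.

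Rela encodes p65, the activating partner in the commonest NF-kB pair. It measured 10.65, 10.50 and 10.68 with vehicle and 10.80, 10.87 and 10.80 with DHA. The DHA arrays were close to each other and all above the vehicle arrays. The log2 difference was 0.21 (SE 0.061; interval 0.067 to 0.36; limma adjusted p = 0.26), 1.16-fold.

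Relb encodes the subunit that works mainly with p52 in the alternative pathway, the branch driven by CD40, lymphotoxin and BAFF receptors. Its values were 5.78, 5.64 and 5.84 with vehicle and 6.12, 5.84 and 6.03 with DHA. DHA replicate 2 and DMSO replicate 3 held an identical value, so the groups touched. The log2 difference was 0.24 (SE 0.089; interval 0.033 to 0.46; limma adjusted p = 0.351).

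Nfkb2 encodes p100, which restrains Relb until it is cut to p52. Its values were 7.024, 7.005 and 7.074 with vehicle and 7.527, 7.064 and 7.498 with DHA. DHA replicates 1 and 3 stood well above the vehicle arrays, while DHA replicate 2 lay within their range. The log2 difference was 0.33 (SE 0.12; interval 0.036 to 0.62; limma adjusted p = 0.365), and the SD was 0.26 among the DHA arrays against 0.036 among the vehicle arrays.

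Among the inhibitors, Nfkbia encodes IkBα, the classical cytoplasmic brake. It measured 8.98, 8.68 and 8.78 with vehicle and 9.23, 8.99 and 9.14 with DHA. The groups were apart by a narrow margin, with DMSO replicate 1 just under DHA replicate 2. The log2 difference was 0.31 (SE 0.096; interval 0.078 to 0.54; limma adjusted p = 0.297), 1.24-fold.

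Nfkbie encodes IkBε, a related brake that acts as a delayed feedback. Its values were 8.009, 7.848 and 7.996 with vehicle and 8.228, 8.005 and 8.023 with DHA, and they overlapped. The log2 difference of 0.13 (SE 0.079; limma adjusted p = 0.549) was the smallest of the 9, and its interval, -0.054 to 0.32, included 0. It was 0.063 without DHA replicate 1 and 0.083 without DMSO replicate 2.

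Nfkbiz encodes IkBζ, a nuclear member of the IkB family that acts with p50 at secondary response genes. It measured 6.63, 6.50 and 6.48 with vehicle and 6.91, 6.77 and 6.74 with DHA. All DHA arrays lay above all vehicle arrays. The means were 6.53 ± 0.080 and 6.81 ± 0.093 (SD, n = 3 per group), a log2 difference of 0.27 (SE 0.068; interval 0.11 to 0.43; limma adjusted p = 0.208).

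Tnfaip3 encodes A20, an enzyme that edits ubiquitin chains and shuts off signalling upstream of IKK. Its values were 6.31, 6.30 and 6.31 with vehicle and 6.72, 6.31 and 6.64 with DHA. As in Nfkb2, DHA replicates 1 and 3 were high and DHA replicate 2 was at the vehicle level, where it shared an identical value with vehicle arrays. The log2 difference was 0.25 (SE 0.10; interval -0.00014 to 0.50; limma unadjusted p = 0.0501, adjusted p = 0.415). Identical values on at least 2 arrays occurred in 35.2% of the tested genes, and among the 9 in Relb and Tnfaip3. The SD of 0.0032 among the vehicle arrays of Tnfaip3 rests on such values, and their part in the results was not tested.

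Tnf encodes tumour necrosis factor, the cytokine ligand of the set. It measured 10.76, 10.61 and 10.74 with vehicle and 10.15, 10.41 and 10.34 with DHA. Every DHA array lay below every vehicle array. The means were 10.70 ± 0.081 and 10.30 ± 0.13 (SD, n = 3 per group), a log2 difference of -0.40 (SE 0.080; interval -0.59 to -0.21). By limma the unadjusted p was 0.00162 and the adjusted p 0.136, at rank 184 of the 15526 genes, and the exact permutation p was 0.1. Tnf was thus about as far from vehicle as Rel, in the other direction.

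**Figure D2:**
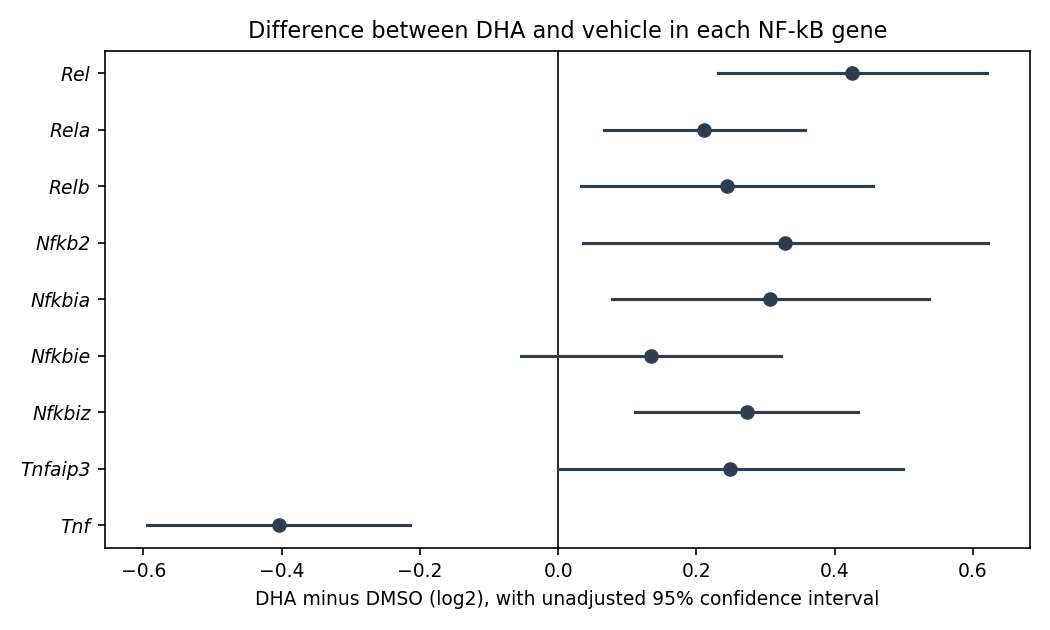
Difference in log2 intensity between DHA and DMSO for each of the 9 genes (points) with the 95% confidence interval from limma (lines), unadjusted for the number of genes. Rel (0.43) and Tnf (-0.40) lie farthest from 0 on either side, and the intervals of Nfkbie and Tnfaip3 include 0.

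The 3 DHA arrays did not sit equally far from vehicle. DHA replicate 1 had the highest DHA value in 7 of the 8 genes that were higher with DHA, and DHA replicate 2 the lowest in 6 of the 8. Rela was the exception at the top, with replicate 2 highest, and in Rela and Nfkbiz replicate 3 was lowest. Of all 923 tested genes higher with DHA at an unadjusted p under 0.05, DHA replicate 2 was lowest of the DHA arrays in 60.3% and DHA replicate 1 highest in 47.0%. The 8 genes were taken without that cut. Nfkbie and Tnfaip3, both with DHA replicate 2 lowest, did not reach it.

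Measured against the vehicle mean, DHA replicate 2 stood at 0.34 in Rel, 0.26 in Rela, 0.24 in Nfkbiz and 0.18 in Nfkbia on the log2 scale. It stood at 0.085 in Relb, 0.054 in Nfkbie, 0.030 in Nfkb2 and 0.0019 in Tnfaip3. On DHA replicate 1 the same quantity was 0.49 for Nfkb2 and 0.41 for Tnfaip3, and on DHA replicate 3 it was 0.46 and 0.33. In Tnf the DHA arrays lay at -0.55, -0.29 and -0.37, with replicate 2 again nearest to vehicle. Rel, Rela, Nfkbia and Nfkbiz thus exceeded the highest vehicle array on every DHA array. Relb, Nfkb2, Nfkbie and Tnfaip3 exceeded it only on DHA replicates 1 and 3.

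**Figure D3:**
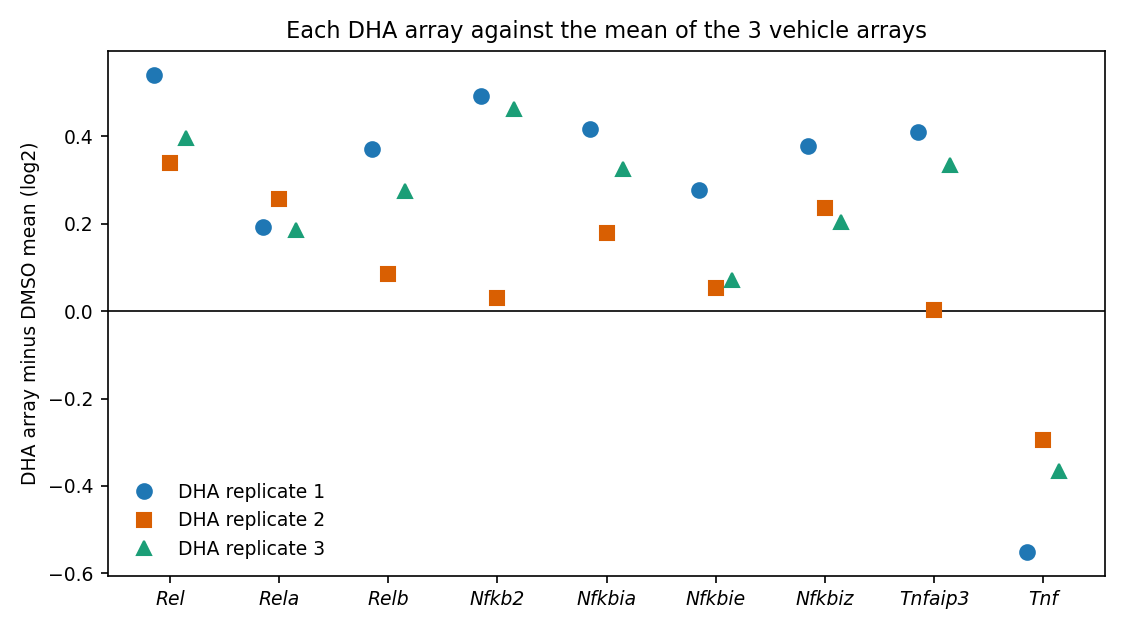
Log2 difference of each DHA array from the mean of the 3 DMSO arrays, for the 9 genes; symbols and colours give the DHA replicate. DHA replicate 2 lies near 0 in Nfkb2 (0.030) and Tnfaip3 (0.0019) and away from 0 in Rel (0.34) and Tnf (-0.29).

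DHA replicate 2 shares an unexplained number in its title with DMSO replicate 3. Between these arrays alone, the log2 difference was 0.25 in Rel, 0.19 in Rela, 0.21 in Nfkbia, 0.29 in Nfkbiz and -0.33 in Tnf. It was 0.0088 in Nfkbie and -0.0097 in Nfkb2, and the arrays were identical in Relb and Tnfaip3. Without both arrays, the median of the 9 genes was 0.35, with 8 of the 9 still higher. At an unadjusted p under 0.05 there were 4 of the 9 without DMSO replicate 2, DHA replicate 1 or DHA replicate 3, against 7 with all arrays. There were 5 without DMSO replicate 1 or DMSO replicate 3, and 8 without DHA replicate 2. The number over all 15526 tested genes moved too, from 1867 with all arrays. It was 1710 without DMSO replicate 2, 1356 without DHA replicate 1 and 1545 without DHA replicate 3. It was 1581 without DMSO replicate 1, 1660 without DMSO replicate 3 and 1882 without DHA replicate 2.

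The other genes of the pathway were taken from 6 lists, grouped by role. Of the 135 listed genes, 126 were measured and 105 tested, and 0 passed the test in either direction. At an unadjusted p under 0.05, 11 were higher and 8 lower, beside 5.94% and 6.08% of all tested genes.

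Receptors, which sense the signals, had a median log2 difference of -0.012, with 6 of 16 tested genes higher. Tlr4, the receptor for bacterial lipopolysaccharide, was at 6.26 ± 0.19 in the DMSO group and 6.73 ± 0.23 in the DHA group (SD, n = 3 each; limma adjusted p = 0.263), and its groups did not overlap. Tlr2, a receptor for bacterial lipoproteins, had a log2 difference of 0.17, and its partner Tlr6 one of -0.27 (limma adjusted p = 0.416 and 0.464). Without DMSO replicate 1 the Tlr6 value was -0.14.

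Ligands of the TNF and IL-1 families had a median of -0.15, with 6 of 8 tested genes lower. Lta, which encodes lymphotoxin α, measured 10.73, 10.68 and 10.74 with vehicle and 10.31, 10.46 and 10.60 with DHA. All its DHA values were below its vehicle values, by -0.26 on the log2 scale (SE 0.078; limma adjusted p = 0.277). Tnfsf10, which encodes the death ligand TRAIL, had -0.22, and Tnfsf9, which encodes 4-1BB ligand, had -0.19 (limma adjusted p = 0.373 and 0.467). Without DMSO replicate 1 the Tnfsf9 value was -0.11. In RefSeq's gene order Tnf lies between Ltb and Lta, with Nfkbil1 next after Lta. Ltb, the remaining lymphotoxin gene, named here for its position after its value was seen, had a log2 difference of 0.10 (limma adjusted p = 0.699) with overlapping groups. Nfkbil1, an IkB-like gene, had 0.20 (limma adjusted p = 0.335). The neighbours thus lay on either side of 0.

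Adaptors and ubiquitin ligases, which carry the signal from receptor to kinase, had a median of 0.013. Traf2, an adaptor of TNF receptors, was at 8.53 ± 0.064 in the DMSO group and 8.75 ± 0.088 in the DHA group (SD, n = 3 each; limma adjusted p = 0.254), and its relative Traf5 had a log2 difference of -0.31 (limma adjusted p = 0.329). Irak2, a kinase-like adaptor of Toll-like receptors, had 0.097, and 0.040 without DHA replicate 1. Kinases had a median of 0.0077. Map3k8, a kinase held inactive by p105, the product of Nfkb1, had 0.21 (limma adjusted p = 0.414), the TAK1 gene Map3k7 -0.11 and Tbk1 -0.11. The other IkB proteins and inhibitors had a median of 0.018. Among them Zc3h12a, which encodes the RNase Regnase-1 that degrades cytokine transcripts, had -0.20 (limma adjusted p = 0.382), or -0.12 without DHA replicate 1, and Nfkbid, a nuclear IkB, 0.18 (limma adjusted p = 0.458).

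Genes listed here as textbook targets, outside the set, had a median log2 difference of 0.045, with 21 of 36 tested genes higher and 15 lower. At an unadjusted p under 0.05, 7 of the 36 were higher and 4 lower, beside the same 5.94% and 6.08%. Slc3a2 encodes an amino acid transporter subunit that ATF4 is known to induce. Its place in this list does not show control by NF-kB, which was not tested. Slc3a2 averaged 11.61 ± 0.052 in the DMSO group and 12.05 ± 0.086 in the DHA group (SD, n = 3 each, limma adjusted p = 0.066). It missed the threshold here and passed it in 4 of 17 alternatives. Irf4, a transcription factor of B-cell differentiation and a Rel target, was at 10.23, 10.15 and 10.25 with vehicle and 10.65, 10.45 and 10.56 with DHA. Its groups were apart, with a log2 difference of 0.34 (SE 0.065; limma adjusted p = 0.126). Cflar, which encodes the caspase-8 inhibitor c-FLIP, had 0.28 (limma adjusted p = 0.242). Of the 44 listed targets, 8 lay under the filter, among them Il6, Il10, Vcam1 and Ptgs2.

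**Figure D4:**
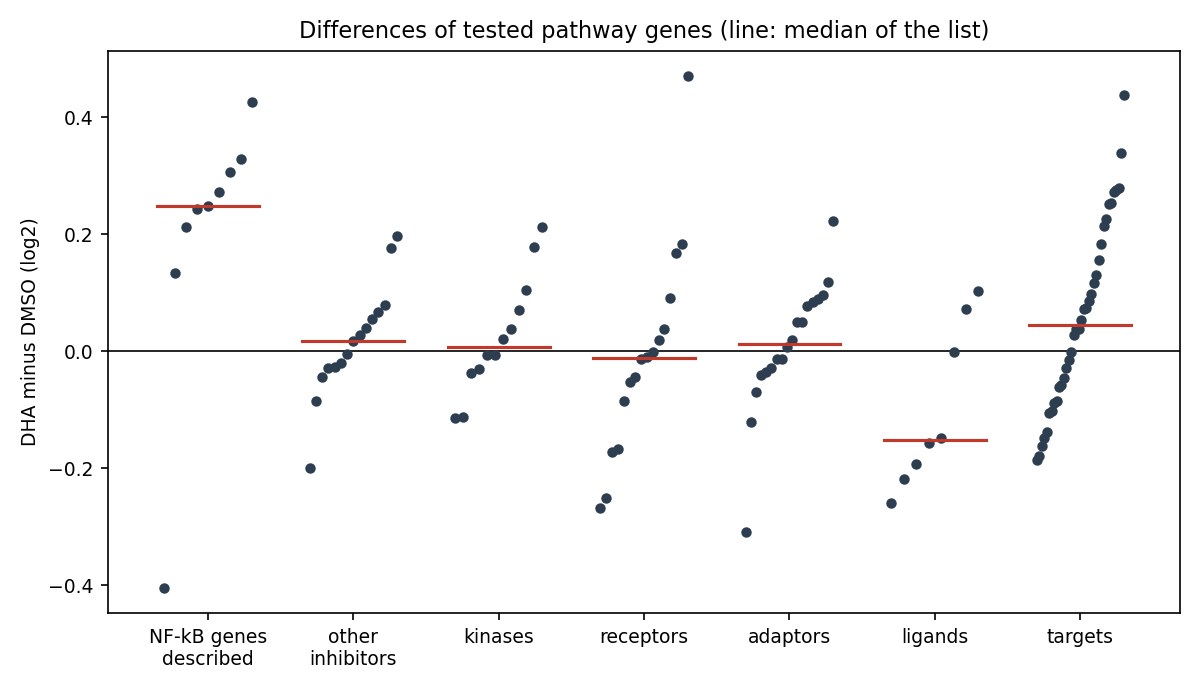
Difference in log2 intensity (DHA minus DMSO) of every tested gene in the NF-kB set and in the 6 other lists, sorted within each list; red lines give the median. The set has a median of 0.25 with Tnf alone below 0, the ligands a median of -0.15, and the medians of the other 5 lists lie between -0.012 and 0.045.

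The tested genes most like Rel over the 6 arrays, by Pearson correlation, were Msmo1 (0.992), F12 (0.988) and Lage3 (0.983). Msmo1, an enzyme of cholesterol synthesis, had a log2 difference of 0.37 (limma adjusted p = 0.0974). Those most like Tnf were Tnrc6a (0.994), Zfp770 (0.993) and Fam78a (0.992), each lower with DHA, with Tnrc6a, a component of microRNA silencing complexes, at -0.25 (limma adjusted p = 0.142). F12 had a log2 difference of 0.14 and Lage3 one of 0.10. These genes were picked as the highest correlations among the tested genes, over arrays of both groups, and are given as a description.

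The arrays correlated at 0.993 to 0.995 with each other, and their medians lay between 5.25 and 5.31. All 12 measured B-cell precursor markers, those of the labelled lineage, lay above the filter at 4.52, with Vpreb1 the dimmest at 4.78. Their mean log2 level was 10.38 to 10.42 on the vehicle arrays and 10.32 to 10.35 on the DHA arrays. Of the 12, 6 were higher with DHA and 6 lower, with a median log2 difference of 0.0048. At an unadjusted p under 0.05, 3 were lower, all with groups apart: Rag2 (-0.53), Cd24a (-0.16) and Igll1 (-0.12). At that level 0 were higher, where 6.08% of all tested genes were lower and 5.94% higher. Ebf1 was higher with groups apart (0.13, limma unadjusted p = 0.0516). The part of these markers in the results was not tested. Markers of myeloid cells, a major source of Tnf, averaged 4.78 to 4.87 and 4.79 to 4.83, with 8 of 14 above the filter, the brightest Cd68 at 7.39, Mrc1 at 6.29 and Fcgr3 at 5.80. Cd14, Adgre1, S100a8, S100a9, Ly6g and Cd163 lay under it, and 0 of the 8 reached an unadjusted p under 0.05. Markers of T and NK cells averaged 4.52 with vehicle and 4.48 to 4.58 with DHA, with 5 of 12 above the filter. Cd8b1 at 4.84, Cd4 at 4.72 and Cd3d at 4.56 lay just above it, and Cd3e, Cd3g and Cd8a under it. The brightest of the 12, Nkg7 at 6.11, was higher with DHA by 0.18 with groups apart (limma unadjusted p = 0.0305, adjusted p = 0.354). Cd5 was at 5.46. The mean levels of stromal markers lay between 4.99 and 5.07 on all arrays. In bulk RNA, fewer cells of a type and less RNA per cell cannot be told apart.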

How the data were processed

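Biotin-labelled cRNA from total RNA of 6 samples was hybridised to Affymetrix arrays, per the labels' protocols. The authors deposited log2 intensities, 1 per probe set and sample, made with RMA and Partek version 6.6, per the submitters' processing notes; their settings are not stated, and no scanner file was used. The extraction protocol also mentions 2 h, and the 4 h of the treatment protocol was used. Groups came from the agent in the labels, and replicate numbers from accession order.

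Probe sets annotated with 1 gene symbol (23521 of 41345) took their names from the platform annotation, and the Entrez identifier linked 23328 of them to RefSeq's current symbol. The brightest by 6-array mean stood for each gene, and genes under the 30th percentile (4.52) were left out, which removed 6654. DHA was compared with DMSO with limma 3.58.1 under R 4.3.3 (lmFit and eBayes, two-sided, 4 residual and 2.77 prior degrees of freedom, Benjamini-Hochberg over 15526 genes). For the 9 genes, an exact two-sided permutation test of 3 against 3 arrays was run. The permutation p was 0.1 for Rel, Rela, Nfkbia, Nfkbiz and Tnf. It was 0.2 for Relb, Nfkb2 and Nfkbie, and 0.3 for Tnfaip3. With 3 arrays per group, their number limits the precision. The procedure was tested on simulated data.

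The genes, lists and tests were chosen with earlier results of these data known. Named were the 9 genes, the 3 genes with the smallest p in each of 6 pathway lists, and the 3 genes most like Rel and Tnf; Ltb, the precursor and other cell markers, and genes listed as under the filter were added. Alternatives left out arrays or changed the filter, normalization, joining of probe sets, variance model, weights, title-code term and threshold. Each of the 9 genes had 1 probe set, so the way probe sets were joined left their log2 differences unchanged.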

Additional observations from a re-analysis of the deposited data

How the results depend on the processing

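None of the 9 NF-kB genes passed the limma test in any of 17 alternatives or at an adjusted p of 0.1. None of the 9 changed sign, but many of the alternatives could not change it. Those that altered the filter, the joining of probe sets, the variance model or the title-code term left these log2 differences exactly as they were. The log2 difference ranged from 0.36 to 0.51 for Rel (adjusted p from 0.0797 to 0.419) and from -0.46 to -0.33 for Tnf (adjusted p from 0.0831 to 0.433). In the 5 genes whose groups do not overlap, leaving out arrays could not reverse the sign. The range was 0.25 to 0.50 for Nfkb2 and 0.17 to 0.37 for Tnfaip3, both highest without DHA replicate 2 or without both arrays of the shared title code. Without both of those arrays Relb was at 0.37, Nfkbid at 0.28 and Tbk1 at -0.062. Fam78a was at -0.13 with the mean of its probe sets, against -0.27 with the brightest.

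The count over all genes, 14, ranged from 0 to 24 when 1 array was dropped. It was 1 for unmoderated variances, 62 for trend and robust moderation, 63 for quantile normalization, 52 for median centring, 62 for a filter at the 50th percentile and 5 if unfiltered. It came to 41 with the title-code term, 0 without both arrays of that code (1569 genes at an unadjusted p under 0.05) and 80 at an adjusted p of 0.1. Among pathway genes, 1, Slc3a2, passed under the 50th percentile filter, quantile normalization, trend and robust moderation or the title-code term, and 0 otherwise. The 7 NF-kB genes at an unadjusted p under 0.05 were 4 without moderation, where the number over all genes went from 1867 to 1340. The cause was not tested. No paired analysis was possible because DMSO and DHA samples share only 1 title number, and replicate numbers came from accession order.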
